A study of Mus musculus with 2 samples.

Results

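MiR-221 and miR-222 are a pair of microRNAs whose hairpins lie side by side on the mouse X chromosome. On the miRNA array of this study they are the spots whose name, without its species prefix, is miR_221 or miR_222. The rule found 2 miRNAs of the 377 on the array (256 of these were kept as mouse miRNAs), both printed under a human prefix and both with 4 spots on each array. Neither is in the customized panel that the authors' deposited table holds beside the array. The study measured C3H10T1/2, a mouse line of mesenchymal progenitors with fat, bone and cartilage fates. Cells received BMP7, a bone morphogenetic protein that signals through SMAD proteins, at 3.3 nM, or vehicle, and both groups were taken after 3 days. Total RNA of each group was given a poly(A) tail, labelled with the dye Cy3 and put on 1 array, so the comparison has no replicates across cultures or arrays, that number of arrays limits its precision, and it carries no p-value. Each array was scanned in 2 channels, the green one in which Cy3 is read (the Cy3 channel) and a red one (the second channel); brightness is in the scanner's intensity units. Errors are over the 4 spots of a miRNA on 1 array (n = 4), which cover neither cultures nor arrays and take the spots as independent.

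A microRNA pairs with messenger RNAs mainly through its seed, bases 2 to 8 from its 5′ end, and lowers the output of those messengers. MiR-221 and miR-222 are made from one primary transcript and share a seed. They are known for lowering the cell cycle inhibitors p27 and p57 and the receptor KIT, for aiding the proliferation of vascular smooth muscle cells, and for their abundance in endothelium.

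The mature sequences below show what the partners have in common and where a probe could tell them apart. They are from RefSeq (GRCm38.p6), 5′ to 3′, with the seed in capitals. The unsuffixed names of the array stand for the arm now called 3p. Mmu-miR-1928, from chromosome 1, is shown because it is the remaining mature mouse miRNA of that table with the same seed; it is not on the array.

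miR-221-3p: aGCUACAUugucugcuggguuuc

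miR-222-3p: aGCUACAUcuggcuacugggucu

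miR-1928: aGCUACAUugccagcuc

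The seed GCUACAU was found in 3 of 1738 mature sequences of the table (0.173%). MiR-221-3p and miR-222-3p are both 23 bases long and identical over their first 8 bases. Set base against base they match at 11 positions. Past the seed their longest common run is the 6 bases cugggu, which starts at base 15 in miR-221-3p and at base 16 in miR-222-3p. MiR-221-3p and miR-1928 share their first 10 bases. Probes for the pair would therefore have to tell them apart by the 3′ part, and how far these probes do was not tested; their sequences were not used here.

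The hairpins, with the 3p arm in capitals, show that in both genes the measured strand lies on the 3′ side of the loop, and that the genes are neighbours. Mir221 lies on the minus strand at chrX:19146294-19146388 and Mir222 on the same strand at chrX:19146893-19146971 (RefSeq, GRCm38.p6), with 504 bases between them. Mir222 is the upstream one in the direction of transcription.

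Mir221: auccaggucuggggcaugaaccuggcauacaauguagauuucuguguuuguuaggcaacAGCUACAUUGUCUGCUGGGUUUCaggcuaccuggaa

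Mir222: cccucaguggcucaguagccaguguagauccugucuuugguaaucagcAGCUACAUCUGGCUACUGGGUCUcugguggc

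The arm takes bases 60 to 82 of the 95-base Mir221 hairpin and bases 49 to 71 of the 79-base Mir222 hairpin.

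The first question was whether the pair differed with BMP7 in the Cy3 channel. MiR-221 was brighter with BMP7 and miR-222 was not. After background correction and quantile normalization miR-221 was 1.83-fold higher (log2 change 0.87 ± 0.25, SE). Its vehicle spots were not well above background. MiR-222 was at 0.05 ± 0.27. The partners thus differed by 0.82 ± 0.37 in their log2 change. With 1 array per group this is a difference between 2 arrays, and it is larger than its error over spots.

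On the vehicle array the 4 spots of miR-221 had a Cy3 brightness of 4457, 4426, 4091 and 4250 units. On the BMP7 array they had 5296, 6127, 5320 and 7604. Every BMP7 spot was brighter than every vehicle spot, and the BMP7 spots were the more scattered, with a mean of 6087 ± 1083 (SD, n = 4) against 4306 ± 170. These are readings with the surroundings included. The local background around the miR-221 spots was also higher with BMP7, at 4895 ± 248 against 3992 ± 138.

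Above that background the miR-221 spots of the BMP7 array stood by 382, 1157, 766 and 2461 units. On the vehicle array the excess was 645, 300, 21 and 291. After subtraction the groups overlapped, since the first vehicle spot exceeded the first BMP7 spot, and the last BMP7 spot carried much of the mean of 1191 ± 903 (SD, n = 4) against 314 ± 256. A spot passed as detected when its excess was over 2 standard deviations of the local backgrounds of its array (948 units for BMP7, 1152 for vehicle), and detection of a miRNA took 2 or more such spots of its 4. MiR-221 passed with 2 of 4 spots on the BMP7 array and with 0 of 4 on the vehicle array, where it was not well above background. Its fold therefore rests on a vehicle level that did not pass detection. The bound set for such miRNAs equals the fitted change of miR-221, so it adds no limit to the 1.83-fold.

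MiR-222 gave 6413, 6322, 5317 and 5887 units in the Cy3 channel on the vehicle array. With BMP7 it gave 5870, 7049, 5799 and 5542. The groups overlapped and their means were close, at 6065 ± 671 (SD, n = 4) with BMP7 and 5985 ± 501 with vehicle. The excess over local background was 624, 1904, 1608 and 1200 units with BMP7, and 2880, 2472, 940 and 1114 with vehicle, so its mean was lower with BMP7 (1334 ± 554 against 1852 ± 969) by less than the spread of the spots. On the vehicle array the first pair of spots, in one row of the block, stood further above background than the second pair. MiR-222 was detected on both arrays, with 3 of 4 spots passing on BMP7 and 2 of 4 on vehicle.

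**Figure D1:**
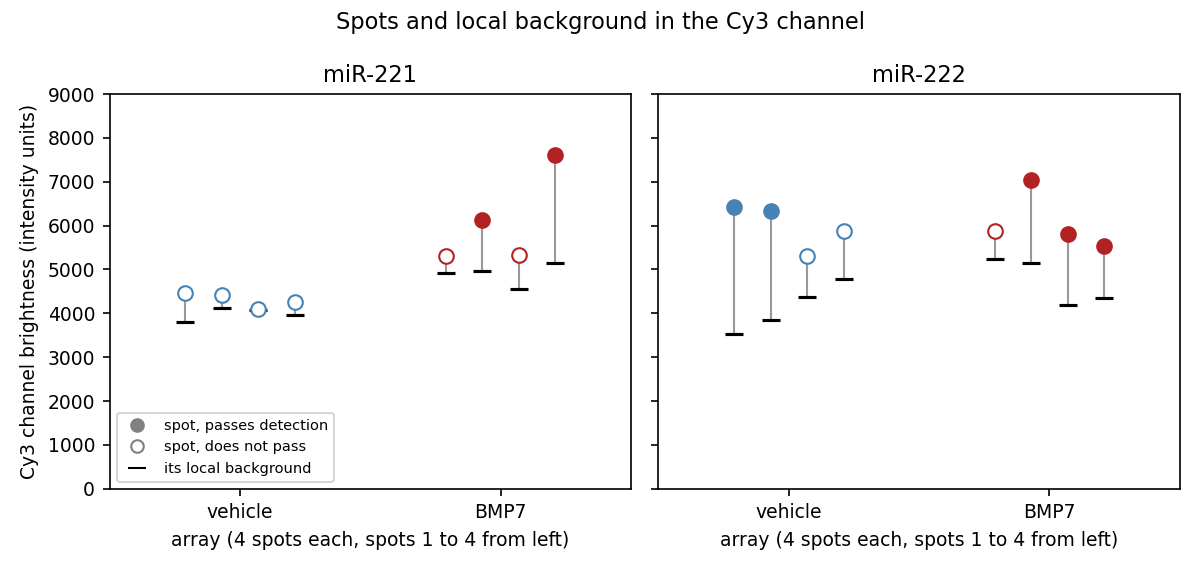
Brightness in the Cy3 channel in intensity units (vertical axis, from 0) of each spot of miR-221 and miR-222 on the vehicle and BMP7 arrays, 4 spots per array. Filled circles passed detection, open circles did not, and the black dash is the local background of that spot. The vehicle spots of miR-221 stand 21 to 645 units above background and none passes; those of miR-222 overlap between the arrays.

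On the normalized log2 scale the miR-221 spots ran from 10.98 to 12.02 with BMP7 and from 10.26 to 10.86 with vehicle, with means of 11.43 ± 0.44 (SD, n = 4) and 10.56 ± 0.24. Those of miR-222 ran from 11.15 to 11.84 with BMP7 and from 11.07 to 11.99 with vehicle, with means of 11.55 ± 0.30 and 11.50 ± 0.45. On this scale miR-221 was thus apart between the arrays and miR-222 was not. The plain excess of the miR-221 spots over local background overlapped, as given above. Among the 65 mouse miRNAs detected on 1 or both arrays, the BMP7 spots all exceeded the vehicle spots in 12 (18.5%), miR-221 included. At least a 2-fold change in either direction was reached by 8 of the 65 (12.3%), and at least a 2-fold increase by 3 (4.62%). These counts use fitted values, and with bounds in place of them for miRNAs seen on 1 array only, 6 reached 2-fold, 3 in each direction. Neither partner was among these. The change of miR-221 ranked 7th highest of the 65 and that of miR-222 29th, and the median of all 65 was -0.03 on the log2 scale. MiR-221 entered the 65 through the BMP7 array alone, where it was brighter. Its rank and its place among the 12 are therefore not separate from the detection filter and are descriptive only.

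Without background correction or normalization, the log2 change in the Cy3 channel was 0.48 ± 0.13 for miR-221 and 0.02 ± 0.10 for miR-222, beside a median of 0.14 over all 377 miRNAs of the array. The partners differed by 0.47 ± 0.16 there. On this scale the BMP7 spots all exceeded the vehicle spots in 108 of the 377 (28.6%), so the separation of the miR-221 spots was shared by many. The size of the miR-221 change depended on the processing: its log2 change was 0.37 with no background correction before quantile normalization and 5.49 with plain subtraction of the background. In both of these miR-221 was still above miR-222, which was at -0.06 and 0.17.

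The partners were also printed in different places. MiR-221 was in block 11 of the 16 print blocks and miR-222 in block 3, at the same rows and columns. The uncorrected Cy3 brightness was shifted toward BMP7 by a median log2 change of 0.30 over the 96 spots of block 11, the 3rd highest of the blocks, and by 0.12 over the 96 spots of block 3, the 8th. Over all blocks the shift ran from -0.05 in block 1 to 0.38 in block 16. When each block was centred on its own median, which was chosen after the data were seen, miR-221 was at 0.30 and miR-222 at -0.42, still 0.72 apart. The part of the block shift in the values of either miRNA was not tested further.

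**Figure D2:**
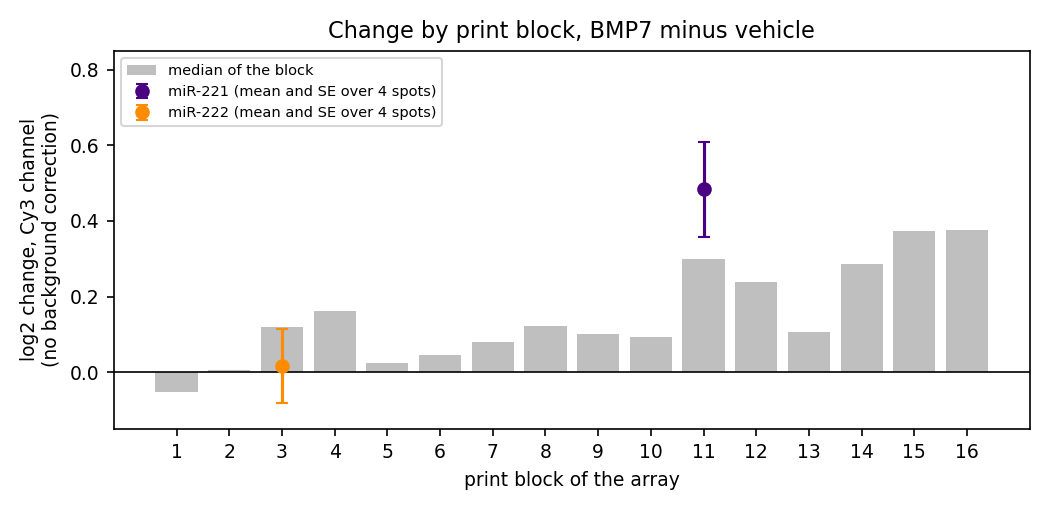
Log2 change in the Cy3 channel without background correction, BMP7 minus vehicle (vertical axis), by print block of the array (horizontal axis). Bars are the median over the spots of a block, and points are miR-221 (0.48, block 11) and miR-222 (0.02, block 3) with the SE over 4 spots; miR-221 lies above a block median of 0.30 and miR-222 below one of 0.12.

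In the second channel of the same scans miR-222 was the partner that differed: it was dimmer with BMP7, and miR-221 lay close to the array's median change. The content of this channel is not stated in the sources used here, so its values describe the spots and not a level of the miRNAs. MiR-222 gave 12458, 12009, 9400 and 10904 units on the vehicle array. On the BMP7 array it gave 6931, 7582, 7341 and 8640. Every BMP7 spot was dimmer than every vehicle spot, and the mean was 7624 ± 729 (SD, n = 4) against 11193 ± 1362, 1.46-fold lower by the mean of log2 values (log2 change -0.55 ± 0.11).

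MiR-221 gave 11223, 11359, 10036 and 11053 units in the second channel with vehicle. With BMP7 it gave 9961, 9336, 9781 and 10694. These spots overlapped, and the log2 change was -0.13 ± 0.06, close to the median of -0.12 over all 377 miRNAs. The change of miR-222 was the 33rd lowest of 377 and that of miR-221 the 180th lowest. A clean drop of all spots, as for miR-222, was found for 120 of the 377 (31.8%). The difference in log2 change between the partners, miR-221 minus miR-222, was 0.42 ± 0.13 in this channel, beside 0.47 ± 0.16 in the Cy3 channel without correction. The local background of the second channel was low beside the spots, with means of 536 and 483 units around miR-221 and 330 and 372 around miR-222, for BMP7 and vehicle. The median second-channel change over the block was 0.05 for block 11 and -0.21 for block 3.

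**Figure D3:**
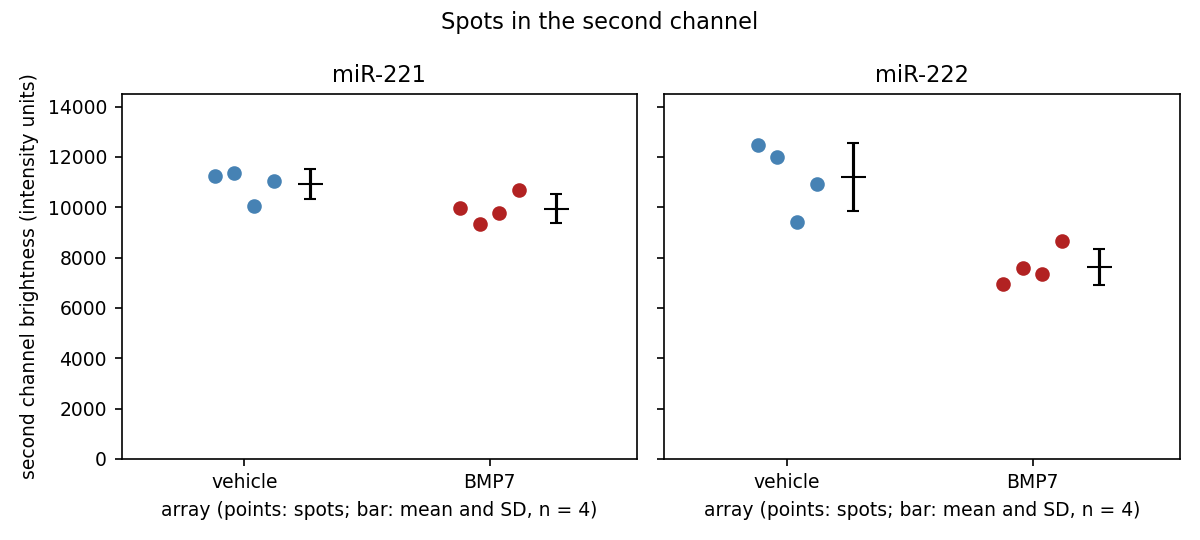
Brightness in the second channel in intensity units (vertical axis, from 0) of each spot of miR-221 and miR-222 on the vehicle and BMP7 arrays, with the mean and SD over 4 spots beside the points. All 4 BMP7 spots of miR-222 (6931 to 8640) lie below its vehicle spots (9400 to 12458), whereas those of miR-221 overlap.

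In the authors' deposited table the pair looks alike. It gives miR-221 a ratio of 0.0348 with BMP7 and 0.0193 with vehicle, and a fold of 1.81 (log2 0.85). For miR-222 the authors' deposited table gives 0.0457 and 0.0262, and a fold of 1.75 (log2 0.80). Among the 339 array miRNAs of the authors' deposited table miR-221 ranked 48th and miR-222 67th. The authors' deposited table puts BMP7 above vehicle for 314 of the 339 (92.6%), with a median log2 fold of 0.54, and 26 (7.67%) were at least 2-fold higher. Against that median miR-221 stood 0.31 and miR-222 0.26 higher in the authors' deposited table, as single values with no error.

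The deposited ratio was rebuilt from the spots by averaging the Cy3 over second-channel brightness of the 4 spots, divided by the same mean over the 16 spots named Control_1. This gave the deposited values of both miRNAs on both arrays within 0.1%. Per spot, the ratio of miR-221 was 0.532, 0.656, 0.544 and 0.711 with BMP7 and 0.397, 0.390, 0.408 and 0.385 with vehicle. That of miR-222 was 0.847, 0.930, 0.790 and 0.641 with BMP7 and 0.515, 0.526, 0.566 and 0.540 with vehicle. For both miRNAs all BMP7 spots exceeded all vehicle spots, as they did for 151 of the 377 (40.1%).

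The like folds of the partners are made of different parts. For miR-221, 0.48 of the log2 fold of 0.85 in the authors' deposited table is the brighter Cy3 signal, 0.13 the dimmer second-channel signal and 0.22 the lower ratio of the Control_1 spots. For miR-222, 0.02 of the 0.80 in the authors' deposited table is the Cy3 signal, 0.55 the second-channel signal and again 0.22 the Control_1 spots. A remainder of 0.01 for each comes from averaging ratios. The Control_1 part is the same for every miRNA of the array. The Control_1 ratio was 17.5 ± 4.42 (SD, n = 16 spots) with BMP7 and 20.5 ± 4.23 with vehicle, a difference smaller than the spread of the spots. Per the file headers, the vehicle export took both channels from one image file, and the BMP7 export took them from 2 differently named image files. Laser power read 3.17 for BMP7 and 2.45 for vehicle in the Cy3 channel, and 3.18 and 3.08 in the second, at equal detector gain.

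**Figure D4:**
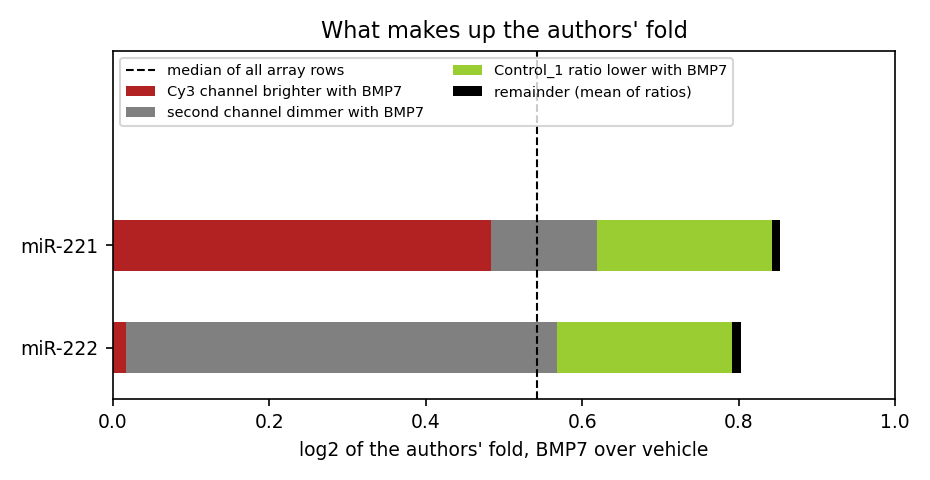
Parts of the log2 fold of the authors' deposited table, BMP7 over vehicle (horizontal axis), for miR-221 and miR-222; the dashed line is the median of all 339 array miRNAs, 0.54. The bars end at 0.85 and 0.80, but the Cy3 part is 0.48 for miR-221 and 0.02 for miR-222, and the second-channel part 0.13 and 0.55.

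The miRNAs most like each partner were sought among the other 64 detected ones, by the distance over both log2 changes (normalized Cy3 channel and uncorrected second channel, from 1 array per group). Nearest to miR-221 were miR-214, miR-199a and miR-199a_AS, miRNAs known from mesenchymal and skeletal tissue. They were at 0.91 ± 0.06, 0.94 ± 0.18 and 0.85 ± 0.20 in the Cy3 channel, and at -0.09, -0.09 and -0.02 in the second. Unlike miR-221, these 3 were detected on both arrays, and in all 3 the BMP7 spots exceeded the vehicle spots. MiR-214 shared block 11 with miR-221 and was at 0.20 when blocks were centred, while miR-199a in block 15 was at 0.48 and miR-199a_AS in block 7 at 0.90.

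Nearest to miR-222 were miR-31, miR-24 and miR-103. They were at 0.13 ± 0.04, -0.01 ± 0.16 and -0.08 ± 0.52 in the Cy3 channel, all with overlapping spots, and at -0.51, -0.46 and -0.46 in the second. The partners were not each other's neighbours: miR-222 was 30th of 64 in distance from miR-221, and miR-221 was 44th of 64 from miR-222.

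The pair was also set beside lists of miRNAs known for the same targets or setting. Of 13 miRNAs known to target the messengers of the cell cycle inhibitors p21, p27 or p57, 11 were on the array and 5 were detected, the pair included. None of the 5 reached 2-fold, 2 (miR-221 and miR-92) had all BMP7 spots above the vehicle spots, and the median log2 change was 0.12. Both of these entered the 5 through the BMP7 array alone, where they were brighter. The 2 of 5 is therefore not separate from the detection filter and is no result about the list. Over all 65 detected miRNAs 12.3% reached 2-fold, 18.5% had all spots above, and the median was -0.03. MiR-92, of the miR-17 clusters, was detected with BMP7 only, at a fitted 1.58-fold higher (log2 change 0.66 ± 0.22). MiR-93, which targets p21, was at 0.12 ± 0.26, and miR-24 was at the value given above.

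Of 10 miRNAs known to act on the switch of vascular smooth muscle cells between proliferation and contraction, all were on the array and 7 were detected, with a median log2 change of 0.00. None reached 2-fold. All BMP7 spots were above the vehicle spots in 2 (miR-221 and miR-21) and below them in 2 (miR-145 and miR-26a). Over all 65 the shares were 18.5% above and 23.1% (15) below. MiR-221 was detected on the BMP7 array only, where it was brighter, so its place in this count is not separate from the filter. MiR-145, which favours the contractile state, was at -0.57 ± 0.05, miR-26a at -0.40 ± 0.08, and miR-21, a miRNA whose processing SMAD proteins promote, at 0.31 ± 0.12. In the second channel miR-145 was at -0.81 and miR-26a at -0.47, so both were dimmer there as well, and miR-21 was at -0.04. In the authors' deposited table miR-145 was at 0.72, miR-26a at 0.56 and miR-21 at 0.32 on the log2 scale.

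Of 6 miRNAs known to target Kit, 3 were detected: the pair and miR-494. MiR-494 was detected with vehicle only, at least 1.13-fold lower with BMP7, with all BMP7 spots below the vehicle spots. By its fitted log2 change of -2.25 ± 0.70 it is the 1 member of this list counted past 2-fold, among 5 of the 65 (7.69%) counted as at least 2-fold lower; at its bound it is not. The other members, miR-193a, miR-193b and miR-148a, did not pass detection on the BMP7 or the vehicle array.

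Markers of other cell types were also read, beside detection of 65 of the 256 mouse miRNAs (25.4%). Neither strand of miR-126, the defining miRNA of endothelium, was detected, nor were any of 3 skeletal muscle probes. Of 6 blood cell probes 1 was detected, miR-223 (1.01 ± 0.12). MiR-223 was brighter with BMP7 in the second channel as well (0.61). In the authors' deposited table it was at 0.22 on the log2 scale, below the median of 0.54. Of 5 epithelial probes 1 was detected, miR-141, on the vehicle array only. Its normalized log2 mean was nevertheless lower there (9.66 against 10.33 with BMP7). All 5 mesenchymal probes were detected on at least 1 array: both strands of miR-199a, miR-214, miR-145 and miR-143.

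Set side by side over 18 alternative ways of processing, the log2 change of miR-221 was above 0 in 18 and that of miR-222 in 11 of them. The 18 include the authors' ratio and the second channel scaled to its median. Without that scaling the second-channel change of miR-221 was below 0, at -0.13. MiR-221 was above miR-222 in all 18, by 0.050 in the authors' deposited table and by 0.43 to 5.32 in those built on the Cy3 channel alone. All 18 reuse the same 2 arrays, so the count is not independent support. Some could not change the difference, since they shift a whole array. It was 0.83 with scaling by the 75th percentile, the median or the Cy3 control spots, and with no normalization.

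**Figure D5:**
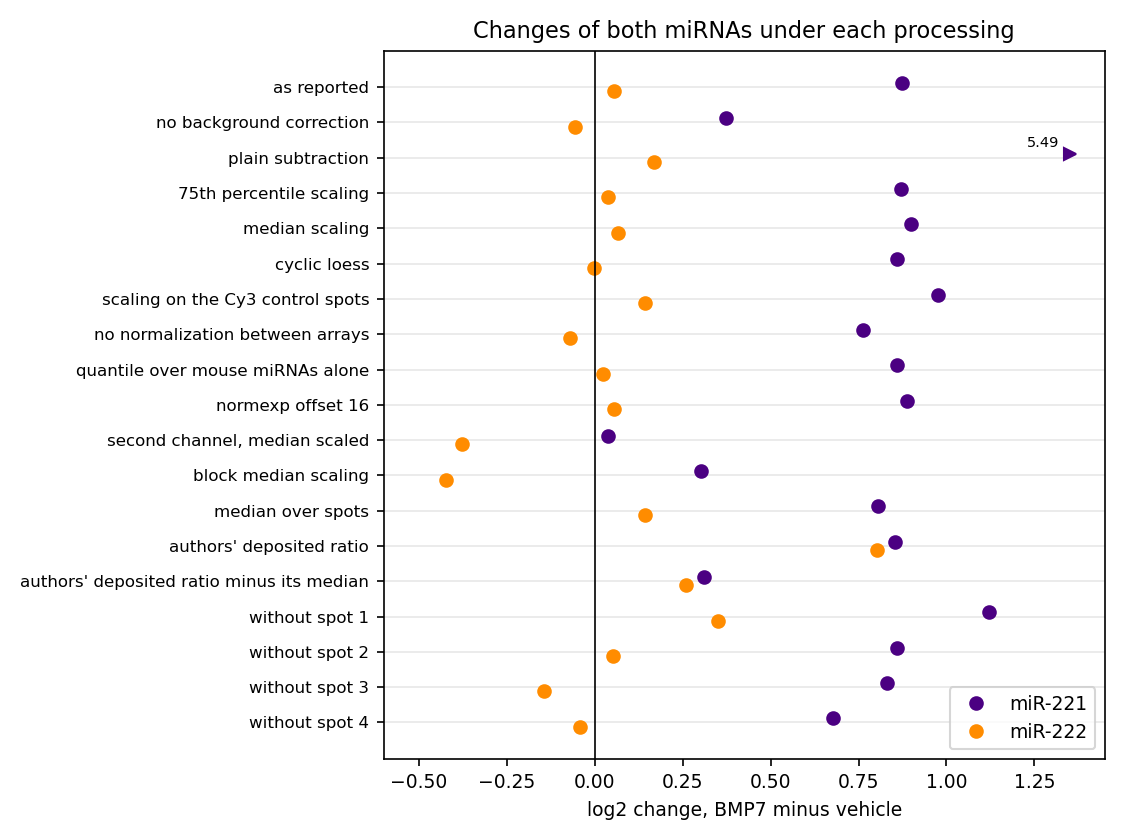
Log2 change of miR-221 and miR-222, BMP7 minus vehicle (horizontal axis), as reported and under each alternative processing (rows). MiR-221 lies right of 0 and right of miR-222 in all rows, from 0.04 to 5.49 (off the axis, arrow), while miR-222 lies on both sides of 0, from -0.42 to 0.80.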

How the data were processed

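Scanner exports of 2 arrays (1 per group) were used. Per the file headers, the deposited intensity columns are mean spot brightness at 532 nm (the Cy3 channel) and 635 nm (the second channel) with no normalization and no background subtraction. The exports also hold a sum and a ratio of background-subtracted means, deposited as a score that can be negative; from these the local background of all 1728 spots was solved. The authors' deposited table holds a ratio per array and a fold, and the matrix of values repeats that ratio; the authors' steps, not given in the sources used here, were rebuilt for the ratio within 0.1% for 336 and 337 of 339 miRNAs on the BMP7 and vehicle arrays.

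With limma 3.58.1 (R 4.3.3) the 532 nm intensity of all spots went through normexp correction at an offset of 50 and, controls left out, quantile normalization; the log2 values of 4 spots were averaged. The arrays differed in median local background at 532 nm (4649 units for BMP7 and 3756 for vehicle). Of 256 mouse miRNAs, matched by name to RefSeq (GRCm38.p6) or carrying a mouse prefix, with the mouse probe kept where several remained, 41 were detected with BMP7, 58 with vehicle and 34 on both. For a miRNA detected on 1 array a bound was set, the brighter mean against the higher of its own mean on the other array and the lowest detected mean there. Where its own mean was the higher, as for miR-221 and miR-92, the bound equals the fitted change and adds no limit to it. Named miRNAs were the pair, the 3 nearest to each, those sharing the seed, and up to 3 detected members per list. Members, lists and rules were chosen with earlier results of these data known. The correction and normalization were run on simulated data in which both arrays had the background of the vehicle array. Changes were set only among the probes brightest above background, so arrays of unequal background were not covered. Python 3.11.15 was used for tables. Nothing says that the 4 spots are other than repeats of one RNA.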

Additional observations from a re-analysis of the deposited data

How the results depend on the processing

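No paired analysis was possible because each group has 1 array. Over 18 alternatives the log2 change of miR-221 was above 0 in 18 and that of miR-222 in 11. The difference between the partners, miR-221 minus miR-222, was above 0 in 18. It was 0.050 in the authors' deposited ratio, and 0.050 with its median removed. These alternatives reuse the same data, and a shift of a whole array cannot change the difference, so the counts are not independent support. MiR-221 was at 0.37 with no background correction, 5.49 with plain subtraction (difference 5.32) and 0.30 with block median scaling. It was at 0.037 in the second channel scaled to its median (-0.13 unscaled) and 0.31 in the authors' deposited ratio minus its median. MiR-222 was at -0.055 with no background correction, -0.0015 with cyclic loess, -0.071 with no normalization between arrays and -0.42 with block median scaling. It was at -0.38 in the second channel scaled to its median (-0.55 unscaled) and 0.80 in the authors' deposited ratio. Without spot 3 it was at -0.15, and without spot 4 at -0.042. Without any 1 spot miR-221 lay between 0.68 and 1.12. The count of miRNAs at 2-fold, 8 of 65, became 0 of 65 with no background correction, 35 of 65 with plain subtraction and 5 of 65 with block median scaling. Over other sets it was 30 of 256 with no detection filter, 2 of 64 in the authors' deposited ratio and 2 of 64 with its median removed. The cause of these shifts was not tested. Block median scaling, and bounds for miRNAs detected on 1 array (6 at 2-fold), were chosen after seeing the data. Low signal over background limits detection of both miRNAs.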
